A study of Mus musculus with 4 samples.

Results

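The genes described here encode the subunits of the mitochondrial oxidative phosphorylation system, together with some of their assembly factors. They were taken from the array annotation by name: a probe set had to carry a single gene symbol that begins with Nduf, Uqcr or Atp5, is Sdha, Sdhb, Sdhc or Sdhd, or begins with Cox4 to Cox8. This gave 179 probe sets for 90 genes out of 18193 genes with such a probe set on the array. Where a gene had several probe sets, the one with the brightest mean log2 signal over the 4 arrays stood for it. A filter on dim probe sets, which required a mean log2 signal of at least 4.79, kept 84 of the 90 genes, among 11395 genes kept in all. A further 10 probe sets named such a gene together with another gene and were left out.

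Oxidative phosphorylation makes most of the ATP of a respiring cell. Complexes I (NADH dehydrogenase) and II (succinate dehydrogenase) pass electrons from metabolites to ubiquinone. Complex III (the cytochrome bc1 complex) hands them on to cytochrome c, and complex IV (cytochrome c oxidase) passes them to oxygen. The proton gradient built on the way drives complex V, the ATP synthase. A few subunits are encoded by mitochondrial DNA, but all the genes described here are nuclear. In the intestinal crypt, stem cells and Paneth cells are known to differ in their use of respiration and glycolysis.

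The tissue was mouse intestinal crypt, the epithelial pocket that holds stem cells, Paneth cells and dividing progenitors, cut out by laser capture. The mutant group had 2 arrays from mice in which tamoxifen had been used to delete beta-catenin, taken 2 days after induction. The control group had 2 arrays from control mice, also labelled day 2. Beta-catenin, encoded by Ctnnb1, carries Wnt signals to the nucleus, where they keep crypt cells dividing. The labels do not give the driver of the deletion, the control genotype, whether controls received tamoxifen, or the strain, age or number of mice. Nor do they state that the 2 samples of each group were from different mice. The p-values therefore cover no more than the variation among these 4 samples, part or all of which could be technical. The mRNA was amplified in 2 rounds. In captured tissue, fewer cells of a type and less RNA per cell cannot be told apart.

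Values are given as log2(signal + 5) after quantile normalization, and differences as mutant minus control on that scale, which understates the change of dim genes. Precision is limited by having 2 arrays a group. The brighter Ctnnb1 probe set read 12.02 and 11.86 in the mutants, against 12.43 and 12.56 in the controls, and the dimmer one differed by 0.38 in the opposite direction. All 12 crypt epithelium markers passed the filter, with mean log2 signals of 10.86 in both mutant arrays, against 10.99 and 11.05 in the control arrays. Single markers differed in both directions without overlap, among them Olfm4 (-1.36, SE 0.24) and Lgr5 (-1.04, SE 0.44), stem cell genes, and Muc2 (1.04, SE 0.27), a goblet cell gene. None of the 3 passed the test over the whole array. The groups of Krt8 (0.09, SE 0.19) and Lyz1 (-0.14, SE 0.18) did not overlap either. Of all genes, 18.9% had both mutant values above both control values and 19.2% had both below. Mutant replicate 1 stood apart from the other arrays. Its 10 pancreatic acinar transcripts lay between 12.28 and 13.17, whereas their mean was 4.61 in mutant replicate 2, against 4.96 and 4.93 in the controls. Of these transcripts Clps was bright on every array, at 10.02 in mutant replicate 2 and 10.1 and 10.4 in the controls. Villus enterocyte markers averaged 12.50 and 11.01 in the mutants, against 12.16 and 11.46 in the controls, the first replicate being the higher in both groups.

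Promoter windows of 6 genes are shown as examples, picked by hand from the 29 members whose mutant and control values did not overlap. The first 4 were picked because they hold a motif, 2 with higher values in the mutants (Uqcr11 and Atp5md) and 2 with lower values (Sdhd and Ndufaf1). Ndufs5, higher in the mutants, and Atp5b, lower, hold none of the motifs. Each window runs from 250 bases before to 50 bases after the RefSeq gene start (GRCm38.p6) and is written 5′ to 3′ on the gene's strand. Capitals mark exact matches to the core sites of NRF1 (CGCATGCG) and of ETS factors such as GABP (CCGGAAG, or CTTCCGG on the other strand), the 2 factors classically tied to respiratory chain promoters.
Uqcr11 (chr10:80406772-80407071, minus strand): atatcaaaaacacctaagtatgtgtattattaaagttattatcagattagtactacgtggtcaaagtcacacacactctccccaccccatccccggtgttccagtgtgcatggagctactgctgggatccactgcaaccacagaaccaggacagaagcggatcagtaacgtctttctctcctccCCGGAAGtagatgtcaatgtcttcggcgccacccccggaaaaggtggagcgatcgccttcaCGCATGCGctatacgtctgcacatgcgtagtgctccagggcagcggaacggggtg
Atp5md (chr19:47090598-47090897, minus strand): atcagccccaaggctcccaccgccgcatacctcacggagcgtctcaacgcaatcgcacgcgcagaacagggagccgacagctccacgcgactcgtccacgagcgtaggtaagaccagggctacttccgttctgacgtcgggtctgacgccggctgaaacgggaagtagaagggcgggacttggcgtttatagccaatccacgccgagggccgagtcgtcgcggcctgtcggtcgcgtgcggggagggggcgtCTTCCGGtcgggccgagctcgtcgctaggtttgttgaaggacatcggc
Sdhd (chr9:50603800-50604099, minus strand): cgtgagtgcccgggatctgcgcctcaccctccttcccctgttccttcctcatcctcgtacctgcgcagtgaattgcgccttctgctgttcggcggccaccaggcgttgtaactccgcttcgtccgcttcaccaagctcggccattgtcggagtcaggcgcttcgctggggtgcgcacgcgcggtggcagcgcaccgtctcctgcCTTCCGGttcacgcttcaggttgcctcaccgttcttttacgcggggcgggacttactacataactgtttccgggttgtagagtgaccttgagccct
Ndufaf1 (chr2:119662785-119663084, minus strand): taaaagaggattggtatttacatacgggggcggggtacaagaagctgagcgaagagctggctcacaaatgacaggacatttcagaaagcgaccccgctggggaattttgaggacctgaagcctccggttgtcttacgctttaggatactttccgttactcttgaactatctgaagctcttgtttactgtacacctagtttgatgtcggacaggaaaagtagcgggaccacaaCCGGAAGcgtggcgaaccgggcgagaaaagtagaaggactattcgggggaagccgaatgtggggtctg
Ndufs5 (chr4:123718137-123718436, minus strand): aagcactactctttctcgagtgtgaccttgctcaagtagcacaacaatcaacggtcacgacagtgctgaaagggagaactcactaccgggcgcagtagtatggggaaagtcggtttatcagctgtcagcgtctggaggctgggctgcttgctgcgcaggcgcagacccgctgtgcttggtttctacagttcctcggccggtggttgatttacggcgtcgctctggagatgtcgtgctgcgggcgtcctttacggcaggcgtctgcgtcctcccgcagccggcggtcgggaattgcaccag
Atp5b (chr10:128083057-128083356, plus strand): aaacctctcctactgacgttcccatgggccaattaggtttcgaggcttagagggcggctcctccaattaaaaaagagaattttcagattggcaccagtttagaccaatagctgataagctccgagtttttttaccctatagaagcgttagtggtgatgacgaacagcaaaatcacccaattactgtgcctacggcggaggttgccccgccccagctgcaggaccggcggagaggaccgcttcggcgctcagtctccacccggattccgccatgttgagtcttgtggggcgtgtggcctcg

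Of the 29 genes with groups that did not overlap, 24 had a window, and 6 of these held an ETS core and 1 an NRF1 core. In the examples the ETS core began at base -66 in Uqcr11, 3 in Atp5md, -46 in Sdhd and -18 in Ndufaf1, counted from the gene start with no base 0. RefSeq windows were matched for 74 of the 90 genes (79 windows). On both strands, 5 motifs were looked for. The NRF1 core was found in 12.7% of these windows, against 1.87% of all 32851 windows in the table and 2.52% of those of protein-coding genes. The ETS core was found in 24.1%, against 8.86% of all windows and 11.6% of protein-coding ones. The YY1 core (AAGATGG) was found in 13.9%, against 6.34% and 6.24%, and the E-box of Myc and related factors (CACGTG) in 8.86%, against 7.15% and 7.84%. The TCF/LEF core (CTTTGAT) was found in 1.27%, against 3.73% and 3.22%. The TCF/LEF match was in 1 gene, Ndufa5, which differed by 0.09 (SE 0.24). Matches are a description of the letters in the windows, and the array does not measure binding. Among the genes that passed the filter, the 19 with an ETS core had a median difference of 0.11 (10 higher, 9 lower), the 10 with an NRF1 core had 0.08 (5 higher, 5 lower), and the 32 with windows but none of the 5 motifs had 0.01 (16 higher, 16 lower).

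The oxidative phosphorylation genes had a median difference near 0, and most of the single differences were small. Of the 84 genes, 46 had a higher and 38 a lower mean in the mutants, beside 50.7% of all genes with a positive difference. Their median difference was 0.05 on the log2 scale, with quartiles at -0.19 and 0.17. The median over all 11395 genes was 0.01, with quartiles at -0.30 and 0.32. No member passed the test over the whole array (limma with Benjamini-Hochberg adjustment, smallest adjusted p = 0.768), and neither did any other probe set: the share called was 0% of 22519 probe sets. At an unadjusted p under 0.05 there were 1415 probe sets (6.28%) and 6.94% of genes, and 1 of the 84 members, Atp5md.

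Both mutant values lay above both control values for 14 of the 84 genes, a count to be read against 18.9% of all genes. Both lay below for 15, against a background of 19.2%. The members' shares, 16.7% and 17.9%, were near those backgrounds. The split depended on scaling: with the deposited values taken to log2 and not scaled further, 21 genes lay above and 3 below, beside 14.8% and 14.9% of all genes. With median centring 13 lay above and 2 below, beside 18.7% and 10.1% of all genes. The median difference of the members was 0.27 on the deposited values, where it was 0.01 for all genes and 0.08 for genes in the upper 25% of signal. Median centring adds the same 0.12 to the difference of every gene, which puts these medians at 0.39, 0.13 and 0.20. The members' median thus stood 0.26 above that of all genes without quantile normalization, and 0.04 above it with it. The genes in the upper 25% of signal had lower median signals than the members, so they do not match them in level.

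The precision of single genes can be read from their intervals. The limma 95% interval lay entirely within a 2-fold difference in either direction for 62 of the 84 genes (73.8%), against 23.4% of all genes. Intervals narrow with signal in this fit, and among the 7094 genes in the upper 25% of signal the share was 32.1%. That set was dimmer than the members, with array medians of 8.45 to 8.53, against 11.27 to 11.60. No set of genes matched to the members in signal was compared. The intervals also rest on quantile normalization. The standard errors of the members ranged from 0.18 to 0.48.

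**Figure D1:**
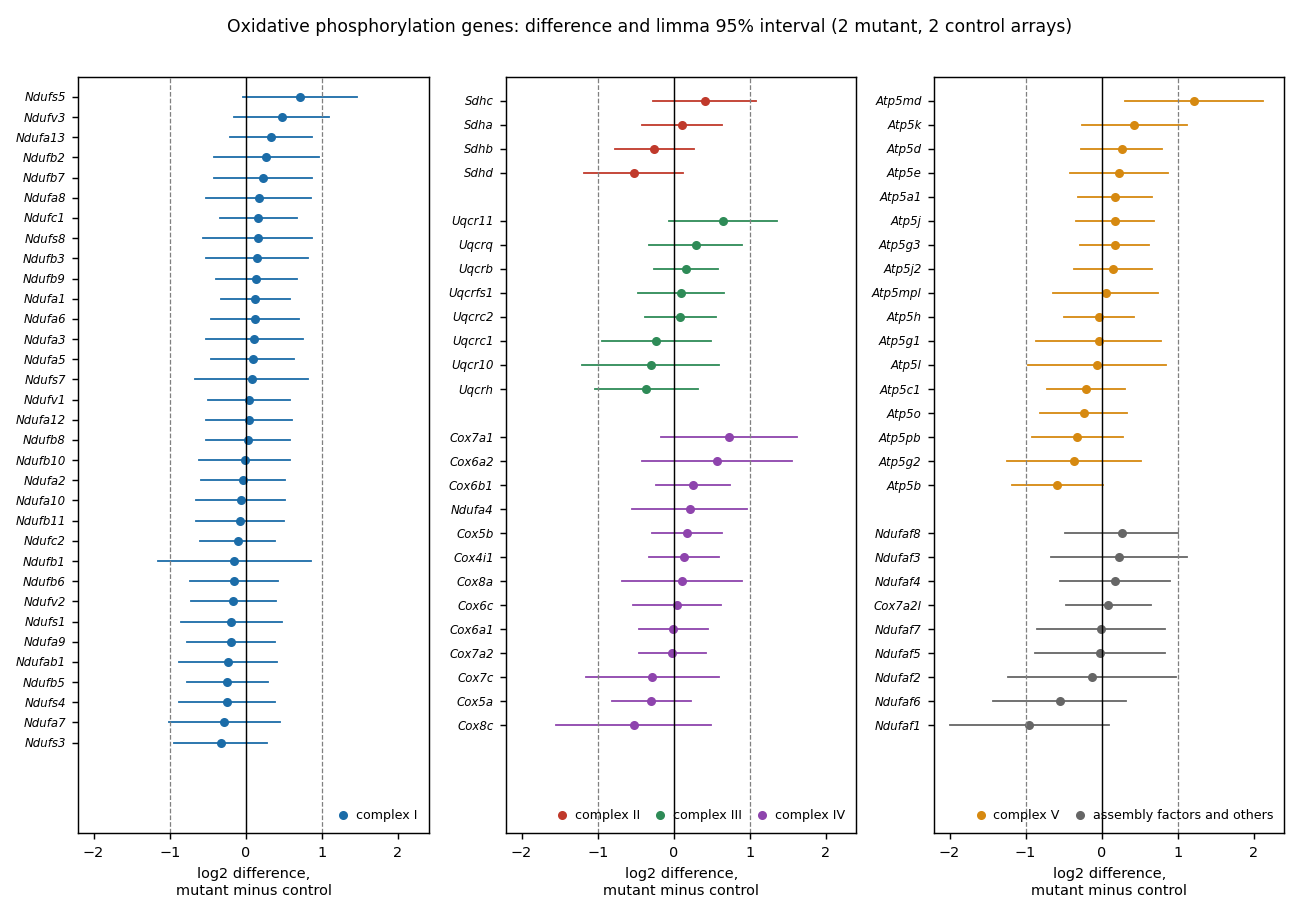
Log2 difference, mutant minus control, of the 84 oxidative phosphorylation genes (points) with the limma 95% interval (lines), by complex, from 2 mutant and 2 control arrays. Dashed lines mark a 2-fold difference. The interval of 1 gene, Atp5md, lies wholly on one side of 0, and 62 intervals lie wholly between the dashed lines.

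Among the 33 measured subunit genes of complex I, 18 were higher and 15 lower, with a median difference of 0.04, and 29 intervals lay within 2-fold. The 6 core subunits measured, which as a set carry the flavin and the iron-sulfur clusters, ranged from -0.33 to 0.16. All 6 of their intervals lay within 2-fold. Ndufv1, which binds the flavin that accepts electrons from NADH, differed by 0.04 (95% interval -0.49 to 0.58).

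The lowest difference of complex I was that of Ndufs3, a core subunit of the arm that reaches into the matrix. It read 10.64 and 10.62 in the mutants, against 10.89 and 11.04 in the controls, a difference of -0.33 (SE 0.27, adjusted p = 0.868 by limma). After quantile normalization both mutant values were lower, by less than the interval of the difference. As deposited, Ndufs3 had signals of 2090 and 1347 in the mutants and 1717 and 2065 in the controls, so the groups overlapped.

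The highest was Ndufs5, an accessory subunit on the intermembrane side. It read 8.98 and 9.08 in the mutants and 8.30 and 8.34 in the controls, so the groups were apart and each was tight. The difference was 0.71 (SE 0.33, adjusted p = 0.789), and it lay between 0.66 and 0.76 with any 1 array left out. Ndufv3, a small accessory subunit of the NADH-oxidising module, read 11.39 and 11.62 in the mutants, against 10.82 and 11.25 in the controls, a difference of 0.47 (SE 0.27). Ndufa13, an accessory subunit also known as GRIM-19, read 12.03 and 12.25 in the mutants, against 11.70 and 11.92 in the controls. Its difference was 0.33 (SE 0.24).

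**Figure D2:**
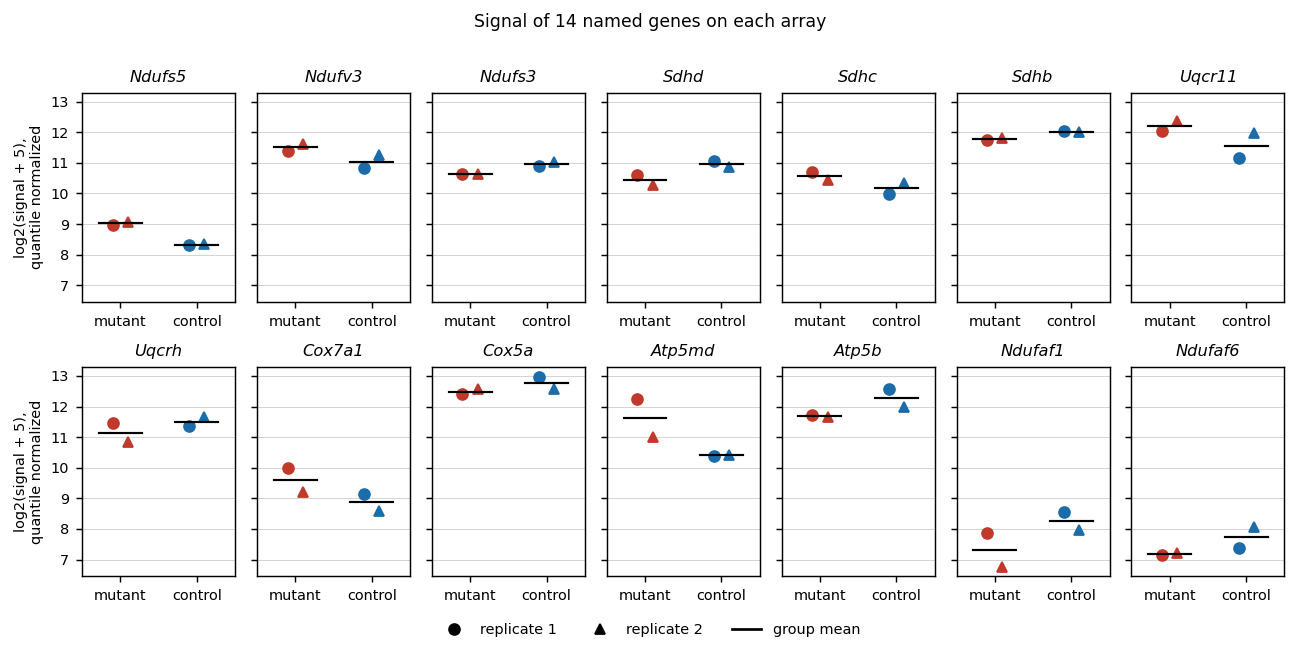
Log2 signal of 14 named genes on each array, with the mutant arrays on the left and the control arrays on the right of each panel (circles, replicate 1; triangles, replicate 2; bars, group means of 2 arrays). Atp5md shows the widest gap between its 2 mutant arrays, at 12.25 and 11.00, beside control values of 10.40 and 10.42.

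The 4 genes of complex II had differences of both signs. Sdhd, a membrane anchor, read 10.61 and 10.26 in the mutants, against 11.07 and 10.85 in the controls, a difference of -0.53 (SE 0.28, adjusted p = 0.802). As deposited, its signals were 2049 and 1033 in the mutants and 1933 and 1791 in the controls, so the groups overlapped. Sdhc, the other membrane anchor, read 10.70 and 10.44 in the mutants and 9.99 and 10.34 in the controls. Its difference was 0.41 (SE 0.30), and its second probe set differed by -0.27 (SE 0.35). As deposited, Sdhc had signals of 2168.3 and 1178.5 in the mutants and 931.7 and 1266.8 in the controls, so the groups overlapped.

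Sdhb, the iron-sulfur subunit, read 11.73 and 11.80 in the mutants, against 12.04 and 12.01 in the controls, a difference of -0.26 (SE 0.23). With median centring, which moved the median of all genes to 0.13, it was 0.09. As deposited, Sdhb had signals of 4300 and 3333 in the mutants and 3690 and 4023 in the controls, so the groups overlapped. Sdha, the flavoprotein that oxidises succinate, differed by 0.11 (SE 0.23) with overlapping groups. After quantile normalization, 2 of these 4 genes had both mutant values below the controls and 1 had both above, beside 19.2% and 18.9% of all genes.

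In complex III, 5 of 8 genes were higher and 3 lower, with a median of 0.09. The 3 larger proteins of the core and electron path lay near 0: Uqcrc1 differed by -0.23, Uqcrc2 by 0.09 and Uqcrfs1, the Rieske iron-sulfur protein, by 0.09. The 5 small subunits spread more widely, from -0.36 to 0.64.

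Uqcr11, a small accessory subunit whose promoter is printed above, read 12.03 and 12.38 in the mutants and 11.16 and 11.97 in the controls. The difference was 0.64 (SE 0.31, adjusted p = 0.789). It was 0.24 without control replicate 1, the lowest of the 4 values, and 1.04 without control replicate 2. Uqcrq read 11.43 and 11.67 in the mutants, against 11.06 and 11.46 in the controls, a difference of 0.29 (SE 0.27) with overlapping groups. It was 0.089 without control replicate 1. Uqcrh, the hinge protein at cytochrome c1, read 11.45 and 10.84 in the mutants, against 11.36 and 11.65 in the controls. Its difference of -0.36 (SE 0.30) was -0.06 without mutant replicate 2.

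Complex IV was represented by 13 genes, Ndufa4 included, a protein first assigned to complex I and later placed in complex IV. Of these, 8 were higher and 5 lower, with a median of 0.11, and 9 intervals lay within 2-fold. Cox5a read 12.40 and 12.58 in the mutants, against 12.98 and 12.58 in the controls. Of its other kept probe sets, 1 differed in the opposite direction (0.15) and 1 in the same direction (-0.40), and the difference of -0.30 (SE 0.23) became 0.02 with the deposited scaling and 0.14 with median centring.

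Several subunits of complex IV exist as tissue isoforms. After quantile normalization, the widely expressed forms lay close to 0. Cox4i1 differed by 0.13 (95% interval -0.33 to 0.59), Cox6a1 by -0.01 (-0.46 to 0.45) and Cox6b1 by 0.25 (-0.23 to 0.74). Cox7a2 differed by -0.02 (-0.46 to 0.43) and Cox8a by 0.11 (-0.68 to 0.90). On the deposited and median-centred scales, the differences of Cox6a1 and Cox7a2 were positive and further from 0, as given in the last section. Ndufa4 differed by 0.21 (SE 0.33).

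After quantile normalization, the heart and muscle forms Cox7a1 and Cox6a2 had both mutant values above both control values, as did 18.9% of all genes. Cox8b, another such form, lay under the filter. It read 2.70 and 2.63 in the mutants and 3.34 and 2.56 in the controls, so its groups overlapped. Cox7a1 read 9.99 and 9.20 in the mutants and 9.15 and 8.59 in the controls, so the lower mutant array lay just above the higher control array. As deposited, its signals were 1328 and 479 in the mutants and 529 and 382 in the controls, so the groups overlapped. The difference was 0.72 (SE 0.39, adjusted p = 0.802), and leaving out mutant replicate 1 gave 0.33. That array also held the pancreatic transcripts.

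Smooth muscle markers averaged 7.60 and 7.17 in the mutants, against 6.54 and 7.25 in the controls, and striated muscle markers 4.41 and 4.27, against 4.06 and 4.38. Only 2 of the 7 striated markers passed the filter, so their mean was mostly of dim signal. Both mutant values lay above both control values for Mylk (0.64, SE 0.28), Myh11 (0.52, SE 0.38), Acta1 (0.95, SE 0.38) and Des, which was under the filter. The other markers of the 2 lists overlapped between groups, and 18.9% of all genes lay above in this way. These comparisons used the quantile normalized values. As deposited, Myh11 had signals of 136 and 93 in the mutants and 72 and 96 in the controls, so its groups overlapped. Those of Mylk, Acta1 and Des did not overlap as deposited. The part of muscle in the Cox7a1 values was not tested. Cox6a2 was dim, at 5.55 and 5.91 in the mutants and 5.46 and 4.87 in the controls, with a difference of 0.57 (SE 0.43). As deposited, its signals were 46.5 and 44.2 in the mutants and 47.8 and 20.5 in the controls, so its groups overlapped. Cox8c, also dim, read 5.23 and 5.75 in the mutants and 6.43 and 5.61 in the controls (-0.53, SE 0.44). The difference was -0.12 without control replicate 1.

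The 6 genes under the filter were mostly isoforms of restricted expression. Cox4i2, the form linked to lung and hypoxia, read 4.42 and 5.10 in the mutants, against 4.62 and 3.94 in the controls. Cox6b2 read 4.99 and 4.83 in the mutants and 4.36 and 4.29 in the controls. Cox7b2 and Cox8b stayed at or under 3.54 on every array. Ndufa4l2, a hypoxia-linked relative of Ndufa4, read 4.62 and 3.67 in the mutants and 3.34 and 4.91 in the controls, and the single-symbol probe set of Ndufb4 lay between 4.23 and 4.63. Of these, Cox6b2 was nearest to the filter, with a mean of 4.62. The kept gene nearest to it was Ndufb1, at 4.99.

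In complex V, 9 of 17 genes were higher and 8 lower, with a median of 0.05, and 13 intervals lay within 2-fold. The catalytic head and central stalk gave 5 genes with differences between -0.58 and 0.26. Atp5b, which encodes the beta subunit that holds the catalytic sites, read 11.74 and 11.66 in the mutants, against 12.56 and 12.00 in the controls. Its difference was -0.58 (SE 0.26, adjusted p = 0.789), and it lay between -0.86 and -0.30 with any 1 array left out. As deposited, before scaling, Atp5b had signals of 4311 and 3024 in the mutants and 5015 and 3957 in the controls, so that mutant replicate 1 lay between the 2 control arrays. Its partner Atp5a1, the alpha subunit, differed by 0.18 (SE 0.21).

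The membrane-bound c ring is encoded by 3 genes whose mature proteins are known to be identical. Atp5g1 differed by -0.04 (SE 0.36), Atp5g2 by -0.36 (SE 0.39) and Atp5g3 by 0.17 (SE 0.20), each within its standard error. The 4 genes of the peripheral stalk, which holds the head still against the turning ring, ranged from -0.32 to 0.17.

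The largest difference among the 84 genes was that of Atp5md, a small membrane subunit also known as DAPIT, which helps ATP synthase form dimers. It read 12.25 and 11.00 in the mutants, against 10.40 and 10.42 in the controls. Both mutant arrays were higher, and their SD was 0.88, against 0.013 in the controls. The difference was 1.22 (2.32-fold, SE 0.40, unadjusted p = 0.015, adjusted p = 0.768 by limma). It was 0.59 without mutant replicate 1 and 1.84 without mutant replicate 2. Mutant replicate 1 was the array with pancreatic transcripts, and the part of that material in the Atp5md value was not tested. Atp5k, the neighbouring small subunit e, read 12.30 and 12.46 in the mutants and 11.53 and 12.38 in the controls. Its difference of 0.43 (SE 0.30) was 0.01 without control replicate 1.

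The rule also caught 9 measured genes that are not subunits, 8 of them complex I assembly factors. Their median was -0.01, with 4 higher and 5 lower. Ndufaf1, which acts early in building the membrane arm of complex I, read 7.85 and 6.76 in the mutants, against 8.56 and 7.96 in the controls. After quantile normalization the groups did not overlap, with an SD of 0.77 in the mutants and 0.43 in the controls. As deposited, the signals were 285 and 82 in the mutants and 358 and 244 in the controls, and the groups overlapped. The difference was -0.95 (SE 0.46, adjusted p = 0.789). The value was -1.50 without mutant replicate 1 and -0.41 without mutant replicate 2. Ndufaf6 read 7.15 and 7.20 in the mutants and 7.37 and 8.07 in the controls, a difference of -0.55 (SE 0.38) that was -0.20 without control replicate 2. Ndufaf8 differed by 0.26 (SE 0.33). Cox7a2l, a factor of respiratory supercomplexes, differed by 0.09 (SE 0.25), and both its other probe sets were lower.

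Across arrays, control replicate 1 was the lowest of the 4 arrays for 43 of the 84 genes, mutant replicates 1 and 2 were lowest for 14 and 20, and control replicate 2 for 7. Over all kept genes, control replicate 1 was lowest for 3443 of 11395. The median deviation of the members from their own 4-array mean was 0.03 and 0.02 in the mutants, against -0.15 and 0.10 in the controls. Both mutant arrays thus lay between the control arrays. Without control replicate 1 the members' median difference was -0.08, and without control replicate 2 it was 0.16.

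**Figure D3:**
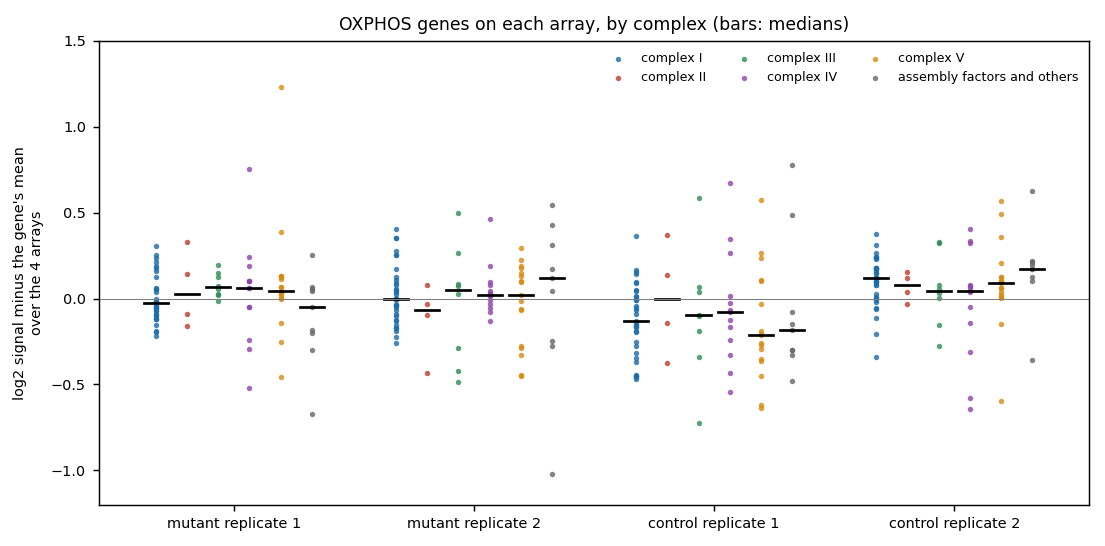
Log2 signal of each of the 84 genes minus that gene's mean over the 4 arrays (points), by array and complex, with bars at the medians. The median deviations over all 84 genes are 0.03 and 0.02 in mutant replicates 1 and 2, against -0.15 and 0.10 in control replicates 1 and 2.

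Probe sets of the same gene did not always point the same way. Beside the representing probe sets, 75 others passed the filter, and 31 of these had a difference of opposite sign. The widest gaps were in dim probe sets of Atp5j2 (-1.27 against 0.15), Uqcr10 (0.86 against -0.31) and Ndufb2 (-0.62 against 0.27). Of the 84 representing probe sets, 21 carry a suffix that marks probes shared with other transcripts. Processed pseudogenes are also common in these families, so signals of near-identical copies may not be separated there.

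Genes that serve the same organelle were described from 7 lists of mitochondrial genes outside the naming rule. The mitochondrial DNA expression list, which copies and transcribes the genome that encodes the remaining respiratory subunits, had the lowest median. Among the 19 genes measured, 16 had a lower and 3 a higher mean, the median was -0.32, and both mutant values lay below both control values for 11 (57.9%, beside 19.2% of all genes). None passed the test over the whole array. These counts were made on the quantile normalized values and were not repeated with the other scalings. The list was chosen with earlier results of these data known.

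Tfam, which packages mitochondrial DNA and starts its transcription, read 8.61 and 8.23 in the mutants, against 9.51 and 9.54 in the controls. The difference was -1.10 (SE 0.33, adjusted p = 0.768), between -1.30 and -0.91 with any 1 array left out. It was -0.63 for the mean of its kept probe sets. Tfb2m, a partner of the mitochondrial RNA polymerase, read 7.99 and 8.68 in the mutants and 9.62 and 9.25 in the controls (-1.10, SE 0.37). Polrmt, the polymerase itself, differed by -0.05 (SE 0.34).

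The medians of the other lists lay nearer to 0. Among 34 assembly factors outside the naming rule the median was -0.11 (13 higher, 21 lower). In it, Nubpl, which delivers iron-sulfur clusters to complex I, differed by -0.98 (SE 0.37) and the complex II factor Sdhaf3 by -1.17 (SE 0.48). Sdhaf3 read 7.18 and 5.80 in the mutants, against 7.66 and 7.67 in the controls, and its difference was -0.48 without mutant replicate 2 and -1.86 without mutant replicate 1. The 26 carriers and electron donors had a median of -0.06 (9 higher, 17 lower). Coq8a, which acts in ubiquinone synthesis, differed by -1.07 (SE 0.40) and Dhodh, the pyrimidine synthesis enzyme that feeds electrons to ubiquinone, by -0.86 (SE 0.39). Cyc1 and Cycs, which encode cytochromes c1 and c, differed by -0.06 (SE 0.21) and 0.07 (SE 0.22).

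Among 30 import genes the median was -0.08 (12 higher, 18 lower), and both mutant values lay below both control values for 12 and above for 3 (40% and 10%, beside 19.2% and 18.9% of all genes). Hspe1, the small mitochondrial chaperonin, differed by -0.60 (SE 0.25) and Timm50, a receptor of the inner membrane translocase, by -0.82 (SE 0.38). The 20 genes of the citric acid cycle and pyruvate dehydrogenase had a median of -0.12 (7 higher, 13 lower). Of these, Dld, a subunit shared by the 2-oxoacid dehydrogenases, differed by -0.59 (SE 0.34) and the pyruvate dehydrogenase kinase gene Pdk4 by 0.66 (SE 0.46). The groups of Pdk4 overlapped, and its difference was 0.12 without mutant replicate 2.

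For 16 genes of inner membrane shape the median was -0.11, with Chchd6 at -1.03 (SE 0.52) and Apool at -0.62 (SE 0.35). Chchd6 was -0.23 without mutant replicate 1. The 16 regulators of mitochondrial gene expression had a median of -0.02 (7 higher, 9 lower). Esrrg, a nuclear receptor, differed by -0.88 (SE 0.44) and the co-activator Pprc1 by -0.71 (SE 0.36). Nrf1 and Gabpa, whose cores were searched in the promoters above, differed by 0.27 (SE 0.50) and -0.29 (SE 0.34). In none of the 7 lists did a gene pass over the whole array. Both mutant values lay below both control values for 37.5% of the regulators and above for 6.25%, beside 19.2% and 18.9% of all genes. These shares were 23.1% and 3.85% for the carriers and electron donors, and 23.5% and 11.8% for the assembly factors. They were 20% and 5% for the citric acid cycle list, and 25% and 25% for inner membrane shape. All these shares are from the quantile normalized values.

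**Figure D4:**
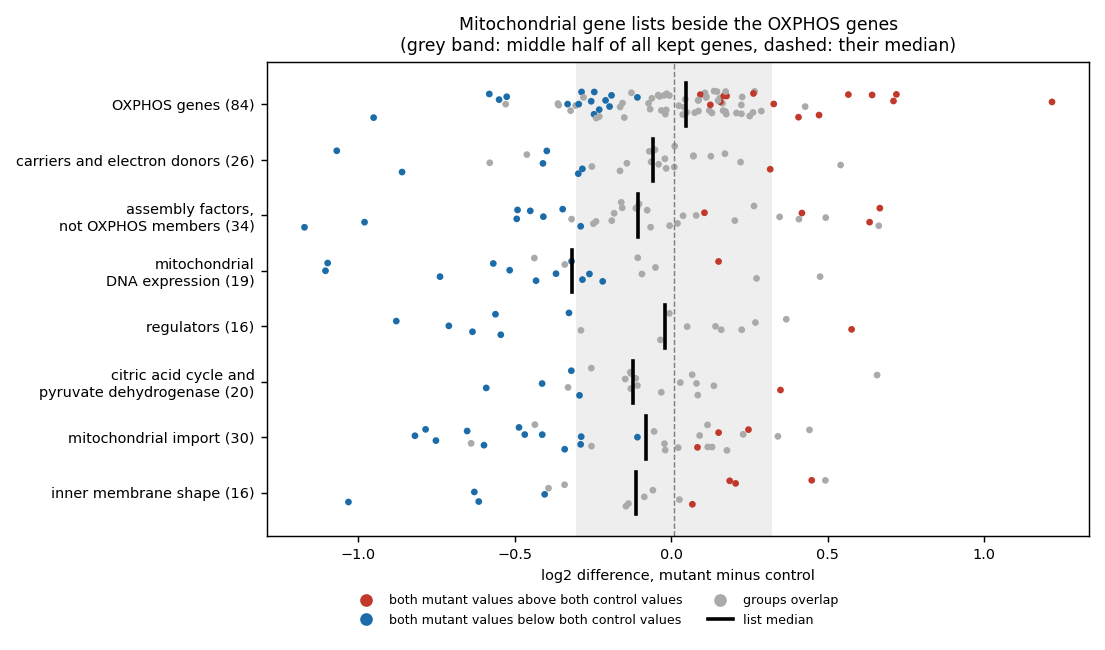
Log2 differences, mutant minus control, of the 84 oxidative phosphorylation genes and of 7 other mitochondrial lists (points, with colour showing whether both mutant values lie above or below both control values; black bars, list medians; grey band, quartiles of all kept genes). The medians are 0.05 for the oxidative phosphorylation genes and -0.32 for mitochondrial DNA expression.

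**Figure D5:**
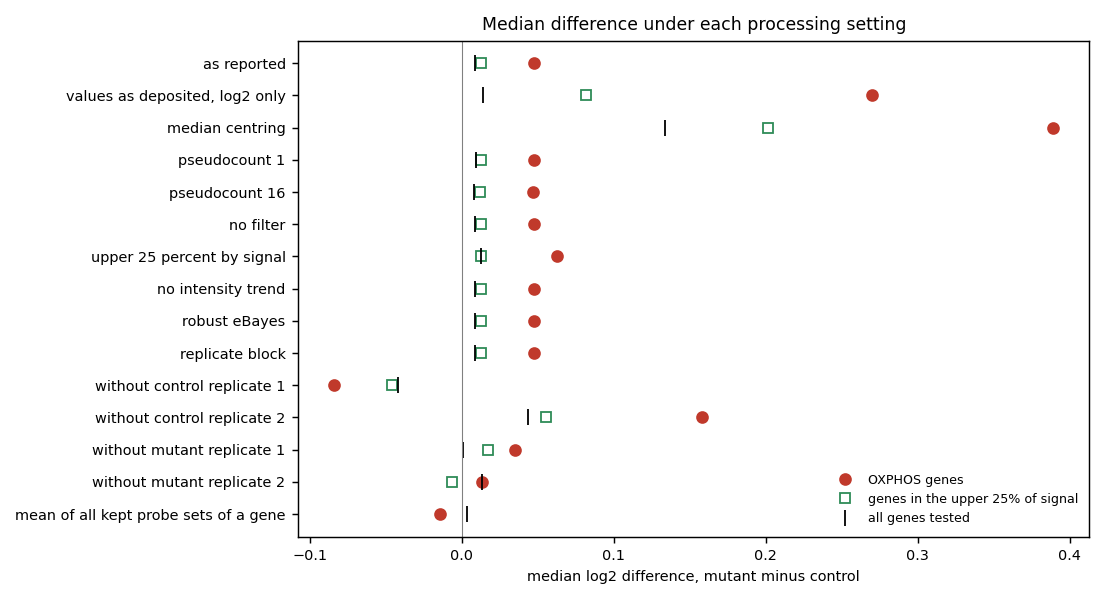
Median log2 difference, mutant minus control, under each processing setting, for the oxidative phosphorylation genes (red circles), the genes in the upper 25% of signal (open squares) and all genes tested (black bars). The members' median is highest with median centring, at 0.39, and lowest without control replicate 1, at -0.08.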

How the data were processed

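Transcript levels in laser-captured mouse crypts were measured on 4 single-colour arrays, 2 mutant and 2 control, grouped by their titles. The deposited table holds 1 linear intensity per probe set and array. MAS5 is the tool named in the submitters' processing notes. Its version and scaling target were not given in the sources used here. Per the series' design text, mRNA was amplified in 2 rounds. Of 45101 probe sets, 64 controls were left out. Values were taken to log2(intensity + 5). Trimmed means (2% trimmed) were 169 and 111 in the mutants, against 130 in both controls, a ratio of 1.53, beyond the limit of 10%, and log2 values were therefore quantile normalized. Probe sets at or above the 50th percentile of mean log2 signal (22519) were fitted with limma 3.58.1 (R 4.3.3; lmFit, eBayes with trend, no covariate, 2 residual and 6.4 prior degrees of freedom), with two-sided p-values adjusted by Benjamini-Hochberg across the fit, at 0.05. With 2 against 2 the smallest two-sided exact permutation p of a single value is 0.333. The fit was tested on simulated data.

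The members and lists were chosen with earlier results of these data known. Genes named are, per complex, the 3 with the smallest p and the largest opposite difference, the isoforms, the 3 widest probe set disagreements, and the 2 smallest p of each other list. Other genes named (Ndufv1, Sdha, Uqcrc1, Uqcrc2, Uqcrfs1, Atp5a1, Ndufa5, Cox7c, Polrmt, Cyc1, Cycs, Nrf1, Gabpa, and the markers Olfm4, Lgr5, Muc2, Mylk, Myh11, Des, Acta1 and Clps) were chosen after their values were seen. The markers Krt8 and Lyz1 were also named after their values were seen. The promoters printed were likewise picked after the values and motif matches were seen. Motifs were searched in RefSeq promoter windows of GRCm38.p6. Alternatives covered scaling, pseudocounts of 1 and 16, filters, variance model, a replicate block, each array left out and the mean of a gene's probe sets.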

Additional observations from a re-analysis of the deposited data

How the results depend on the processing

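The members' count past the test was 0 under each of the 14 alternatives run. Over the whole array, the count was 0 in the fit reported, 2 with the values as deposited, 102 with median centring and 1 with the replicate block, and ranged from 0 to 85 with 1 array left out (19 without mutant replicate 1, 85 without mutant replicate 2). The members' median difference was 0.27 on the deposited scale and 0.39 with median centring, ranged from -0.08 to 0.16 with 1 array left out, and was -0.01 when a gene's kept probe sets were averaged. The number of members whose mutant arrays both lay under the control arrays was 3 on the deposited scale and 2 with median centring, beside 14.9% and 10.1% of all genes. With 1 array left out it ranged from 22 to 37, with 37 without control replicate 1, 22 without control replicate 2, 25 without mutant replicate 1 and 24 without mutant replicate 2, beside 37.2%, 33.0%, 34.1% and 33.4% of all genes, since fewer arrays overlap less. Of the 47 named genes tested in this way, 36 moved by over 1.5 times or changed sign when some array was left out. The causes of the other shifts were not tested.

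The labels do not say that a replicate number is shared between groups, and the difference between replicates 1 and 2 correlated between the groups at 0.03 over 22519 probe sets. The replicate block cannot move a mean difference in this balanced design. It gave 5 members at an unadjusted p under 0.05, against 1 without it.

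Some differences changed sign, none of them past the test. Median centring adds the same 0.12 to every difference of the deposited scale, so the centred values repeat the deposited ones with that shift. On these scales, in the order deposited then centred, Cox5a stood at 0.023 and 0.14, Cox7a2 at 0.25 and 0.37, Cox6a1 at 0.29 and 0.41, and Atp5g1 at 0.11 and 0.23; Sdhb stood at 0.094 with median centring. When probe sets were averaged, Cox6a1 stood at 0.017, Cox7a2l at -0.16, Atp5j2 at -0.34 and Ndufb2 at -0.057. With 1 array left out, the range was -0.088 to 0.61 for Ndufaf8, -0.088 to 0.051 for Cox7a2, -0.077 to 0.065 for Cox6a1, -0.27 to 0.49 for Cox8a, -0.23 to 0.65 for Ndufa4, -0.75 to 0.026 for Atp5g2, -0.51 to 0.43 for Atp5g1, -0.17 to 0.34 for Cox7a2l, -0.048 to 0.35 for Atp5j2, -0.74 to 0.13 for Uqcr10 and -0.046 to 0.58 for Ndufb2. With 1 array left out, the lone sample of a group is assumed to vary like the others. Dim signal limits Cox6a2, Cox8c and the genes under the filter. It also limits Ndufb1 (mean 4.99) and Cox7c (mean 6.48), which are counted in complexes I and IV.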
